A study of Mus musculus with 4 samples.

Results

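The citrate cycle and pyruvate entry group holds 30 genes: the carriers and enzymes that bring pyruvate into mitochondria and turn it into acetyl-CoA, the enzymes of the cycle itself, and the dehydrogenase and aminotransferases of the malate-aspartate transfer of reducing equivalents. The members were chosen by name, with earlier results of these data known, so the choice was not independent of these arrays. Probe sets of the array are numbered by gene, and 28 of the 30 members were matched to 1 probe set each, out of 20700 named genes on the array. Suclg2, the GTP-linked beta subunit of succinyl-CoA ligase, and Got2, the mitochondrial aspartate aminotransferase, were not analysed here. Of the 28, 27 were named by the platform annotation, and Mpc2 was matched through its gene number in a RefSeq table because the annotation does not list its probe set.

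Gene expression was measured on 4 arrays of heart tissue from mice aged 2 months: KO (Mef2a-/-) atria, WT (Mef2a+/+) atria, KO ventricles and WT ventricles. Mef2a encodes a transcription factor of striated muscle. Each array carried RNA pooled from 7 mice, males and females together, so there is 1 array per group, no replicate error within a group. No difference below was tested: a fit of chamber and genotype together would leave 1 residual degree of freedom, whose error is the chamber dependence of the genotype ratio and not the spread between mice, and it was not run. How the allele was made, and in which strain, is not given in the sources used here. On these arrays the signal of Mef2a itself was 10.41 in KO atria against 10.32 in WT atria, and 10.34 in KO ventricles against 10.28 in WT ventricles (log2 intensity). It was not lower on the KO arrays, and the deleted part of the gene is not named in the labels, so it does not check the genotype labels on which every KO and WT below rests. The interquartile range of all probe sets was 2.97 on the KO atria array and 3.18 to 3.21 on the other 3, so values were more compressed on the KO atria array. The chamber labels were checked against markers: all 6 atrial markers were at least 2-fold higher in atria than in ventricles in each genotype, with Nppa the least separated at a log2 ratio of 1.28 in KO and 1.40 in WT. All 6 ventricular markers were higher in ventricles in both genotypes. All 8 cardiomyocyte markers, among them Myh6 and Actc1, were above 11 on every array (log2 intensity).

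Pyruvate made in the cytosol crosses the inner mitochondrial membrane through a carrier of paired MPC1 and MPC2 subunits. The pyruvate dehydrogenase complex then oxidizes it to acetyl-CoA, and kinases (PDK) switch the complex off by phosphorylation while phosphatases (PDP) switch it on again. Citrate synthase joins acetyl-CoA to oxaloacetate, and the dehydrogenases of the cycle pass electrons to the respiratory chain, on which the continuously working heart depends. The malate-aspartate transfer carries cytosolic NADH equivalents into mitochondria.

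In these pools the members differed more between chambers than between genotypes. Of 28 members, 25 had both atrial values below both ventricular values, where 37.3% of 11204 genes above the floor did. The floor is the median of all values in the table, 5.71 on the log2 scale, which the brightest array compared had to reach. Pdk3 alone had both atrial values above both ventricular values (30.3% of genes), and in Idh3g and Mdh2 the chambers overlapped. No member reached 1.5-fold between KO and WT in either chamber. By the same 1.5-fold cut, 15 of 28 members were lower in atria than in ventricles in KO and 10 of 28 in WT. This order was not particular to the members. Of all genes, 10.3% in KO and 7.76% in WT were at least 1.5-fold lower in atria. Between genotypes, 2.40% were at least 1.5-fold lower in KO in atria and 0.711% in ventricles.

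The promoter windows of 5 members are printed to show the sequence next to the start of the genes with the largest chamber ratios: Pdk3, the member higher in atria, and Sucla2, Dld, Mpc1 and Mpc2, each at least 2-fold lower in atria than in ventricles in KO. Each runs from 250 bases before to 50 bases after a RefSeq transcript start, 5′ to 3′ on the strand of the gene (RefSeq, mouse build GRCm38.p6). Capitals mark the letters GGGCGG, the core of the GC box, on either strand, so that CCGCCC is the same motif on the other strand. The window of Pdk3 lies at chrX:93832101-93832400 on the minus strand, that of Sucla2 at chr14:73552536-73552835 on the plus strand, that of Dld at chr12:31351422-31351721 on the minus strand, that of Mpc1 at chr17:8283537-8283836 on the plus strand (the first of its 2 listed starts) and that of Mpc2 at chr1:165461010-165461309 on the plus strand.
Pdk3: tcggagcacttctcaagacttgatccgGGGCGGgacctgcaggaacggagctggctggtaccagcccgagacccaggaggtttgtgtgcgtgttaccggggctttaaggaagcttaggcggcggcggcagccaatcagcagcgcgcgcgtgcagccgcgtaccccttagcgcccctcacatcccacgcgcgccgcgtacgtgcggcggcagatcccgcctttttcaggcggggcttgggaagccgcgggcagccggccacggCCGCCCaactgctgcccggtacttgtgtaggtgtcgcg
Sucla2: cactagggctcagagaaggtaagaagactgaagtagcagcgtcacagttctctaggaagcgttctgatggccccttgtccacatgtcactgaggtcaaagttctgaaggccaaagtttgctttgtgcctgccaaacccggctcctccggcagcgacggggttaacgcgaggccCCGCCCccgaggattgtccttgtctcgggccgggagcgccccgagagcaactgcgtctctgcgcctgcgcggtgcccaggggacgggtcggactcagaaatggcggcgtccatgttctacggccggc
Dld: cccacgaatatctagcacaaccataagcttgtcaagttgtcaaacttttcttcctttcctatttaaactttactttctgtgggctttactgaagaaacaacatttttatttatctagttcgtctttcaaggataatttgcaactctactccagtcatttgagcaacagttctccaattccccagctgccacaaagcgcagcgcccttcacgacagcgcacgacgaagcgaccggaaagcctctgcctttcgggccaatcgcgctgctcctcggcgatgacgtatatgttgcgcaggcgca
Mpc1: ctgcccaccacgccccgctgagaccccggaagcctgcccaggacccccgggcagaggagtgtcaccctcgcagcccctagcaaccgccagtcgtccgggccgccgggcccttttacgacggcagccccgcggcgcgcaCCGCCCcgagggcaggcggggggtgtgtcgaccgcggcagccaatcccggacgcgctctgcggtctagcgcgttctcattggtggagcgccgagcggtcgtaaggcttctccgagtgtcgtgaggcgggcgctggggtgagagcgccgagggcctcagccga
Mpc2: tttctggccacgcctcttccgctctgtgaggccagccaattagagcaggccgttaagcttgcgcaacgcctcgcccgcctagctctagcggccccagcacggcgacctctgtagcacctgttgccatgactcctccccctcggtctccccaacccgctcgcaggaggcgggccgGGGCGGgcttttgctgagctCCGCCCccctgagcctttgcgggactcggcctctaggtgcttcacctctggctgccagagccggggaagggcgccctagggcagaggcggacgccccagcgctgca
The Pdk3 and Mpc2 windows each held the motif at 2 positions, the Sucla2 and Mpc1 windows at 1, and the Dld window at 0. The GC content was 68.0% for Pdk3, 62.0% for Sucla2, 47.0% for Dld, 73.7% for Mpc1 and 68.7% for Mpc2, against a median of 61.5% over the 36 member windows and 52.7% over all 32851 windows. Both the motif count and the GC content of the Pdk3 window lay within the range of the other 4 windows.

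Over the 26 measured members with a window in the table, GGGCGG was found in 19 (73.1%), against 38.2% of all 27025 genes with a window. By window, it was found in 24 of 36 member windows, against 35.7% of all 32851. The motif is all G and C, and the member windows had the higher median GC content (61.5% against 52.7%). The shares were not matched for GC content or for windows per gene, so they do not show enrichment. AAGGTCA, the half-site known for estrogen-related receptors, was found in 2 members (7.69%), Got1 and Ogdh, against 5.38% of genes. CACGTG, the E-box core, was found in 5 members (19.2%), Ogdh, Pcx, Pdk2, Pdp2 and Pdpr, against 8.09% of genes. By window, CACGTG was found in 7 of 36 member windows, against 7.15% of all. The shares of these 2 motifs were not matched for GC content or windows per gene either, so they do not show enrichment. The MEF2 consensus was found in 0 members and 0.636% of genes. Both strands were searched, none of these motifs contains another, and a match describes letters in a window and not a binding site.

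**Figure D1:**
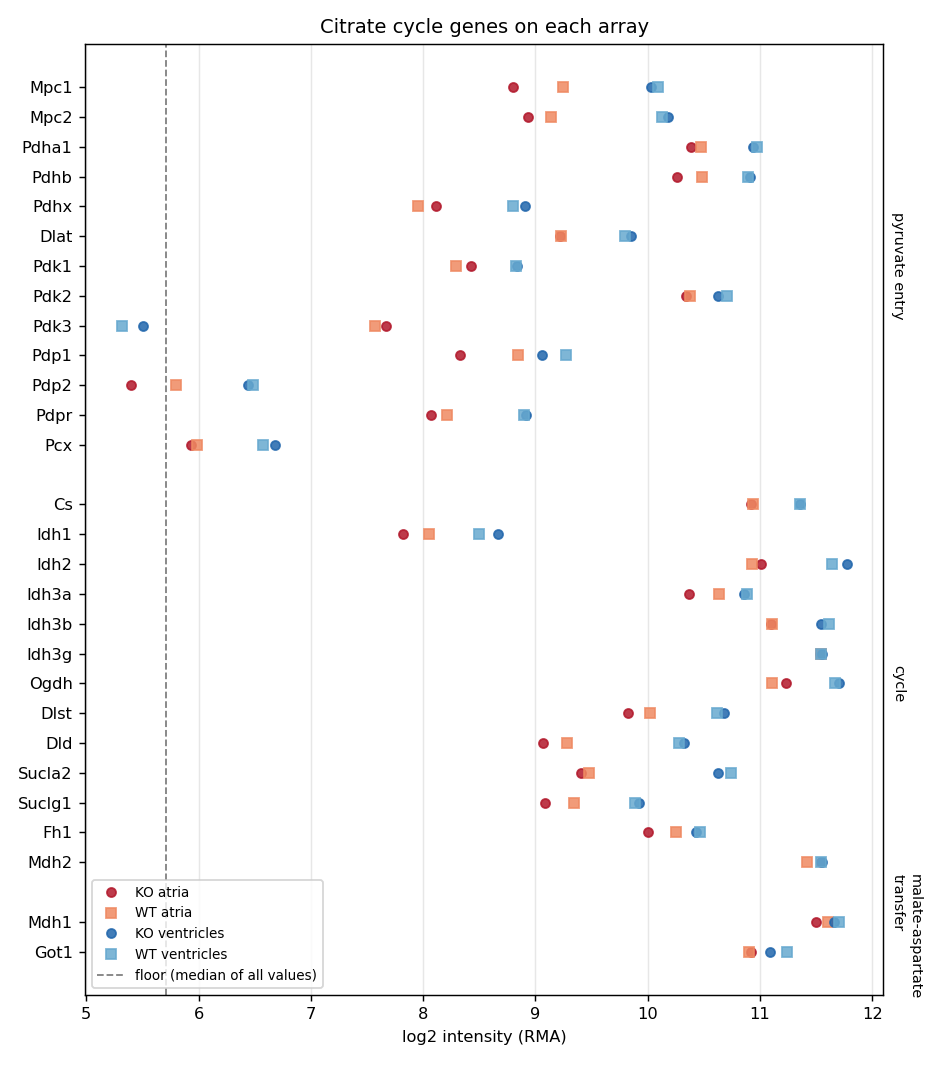
Log2 intensity (horizontal axis) of each of 28 measured members (rows, by step) on the 4 arrays, KO atria, WT atria, KO ventricles and WT ventricles. 1 point is 1 array of pooled RNA and the dashed line is the floor of 5.71. Within a row, both atrial points lie left of both ventricular points in 25 members and right of them in Pdk3. Levels are not comparable between rows.

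Atria against ventricles was compared within each genotype. The KO atria array, on which values were more compressed, enters the comparison in KO and not that in WT. In KO, 27 of 28 members had a lower level in atria than in ventricles, with a median log2 ratio of −0.64, against a median of −0.05 and 55.7% lower over 10982 genes above the floor. In WT, 26 of 28 were lower in atria, with a median of −0.52, against −0.01 and 51.5% lower over 10872 genes. The members lower in atria numbered 25 in KO and 26 in WT under quantile normalization, and 24 and 25 under lowess centring. Fewer cells of a type and less RNA per cell cannot be told apart in such tissue pools.

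At 2-fold, 5 members were lower in KO atria than in KO ventricles (Dld, Mpc2, Mpc1, Sucla2 and Pdp2), where 2.95% of genes were, and 1 was higher (Pdk3), where 3.35% of genes were. In WT, Sucla2 was at least 2-fold lower, where 2.23% of genes were, and Pdk3 at least 2-fold higher, where 3.77% were. Dld and Mpc2, at −0.998 and −0.99 in WT, missed 2-fold narrowly and passed it when each array was centred on its median. At 1.5-fold, 15 of 28 members (53.6%) were lower in KO atria against 10.3% of genes, and 10 of 28 (35.7%) were lower in WT atria against 7.76% of genes. Among the 5208 genes whose mean level reached the 75th percentile of all values, the corresponding shares were 11.5% in KO and 8.77% in WT.

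**Figure D2:**
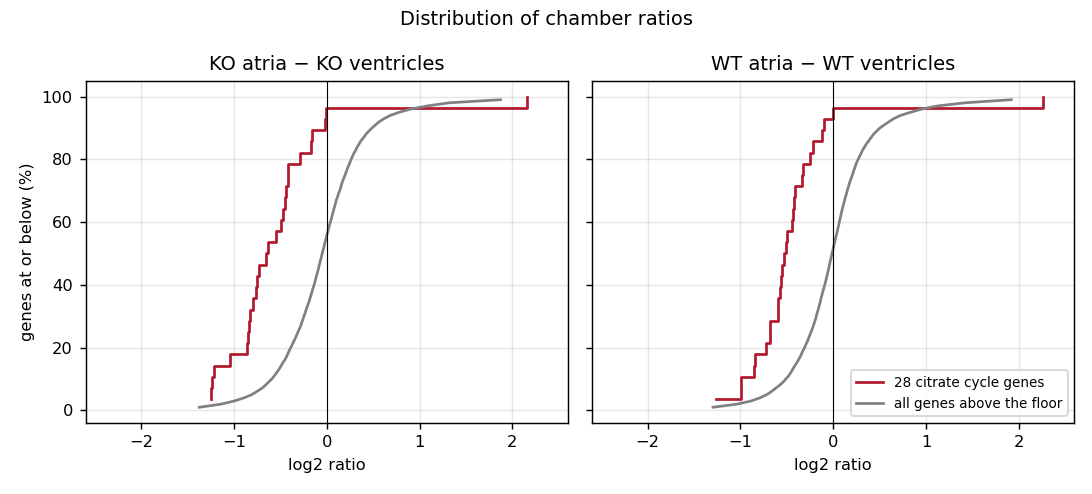
Percentage of genes (vertical axis) at or below each log2 ratio of atria to ventricles (horizontal axis), in KO (left) and WT (right). The red steps are the 28 members and the grey line is all genes above the floor, drawn over its 1st to 99th percentile. The members' curve lies left of the grey line, with medians of −0.64 in KO and −0.52 in WT, except for Pdk3 at 2.16 in KO and 2.26 in WT.

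The carrier subunits came first in the pathway and were among the members with the largest chamber ratios. Mpc1 stood at 8.80 in KO atria, 9.24 in WT atria, 10.03 in KO ventricles and 10.09 in WT ventricles (log2 intensity). Mpc2 stood at 8.93 in KO atria, 9.14 in WT atria, 10.18 in KO ventricles and 10.13 in WT ventricles. In both genes the atrial values were lower, by a log2 ratio of −1.23 for Mpc1 and −1.24 for Mpc2 in KO, and −0.85 and −0.99 in WT.

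The pyruvate dehydrogenase complex was lower in atria in every subunit measured. Pdha1, the alpha subunit of the E1 component that decarboxylates pyruvate, stood at 10.39 in KO atria, 10.48 in WT atria, 10.94 in KO ventricles and 10.97 in WT ventricles. Its partner Pdhb, the E1 beta subunit, stood at 10.26 in KO atria, 10.49 in WT atria, 10.91 in KO ventricles and 10.90 in WT ventricles. On both atrial arrays each subunit was lower than on both ventricular arrays. The chamber log2 ratio was −0.55 in KO and −0.50 in WT for Pdha1, and −0.65 in KO and −0.41 in WT for Pdhb. Dlat, the E2 acetyltransferase core, stood at 9.22 in KO atria, 9.22 in WT atria, 9.85 in KO ventricles and 9.80 in WT ventricles. Pdhx, which binds the E3 component to that core, stood at 8.11 in KO atria, 7.96 in WT atria, 8.91 in KO ventricles and 8.80 in WT ventricles. The ratio was larger in size for Pdhx (−0.80 in KO, −0.84 in WT) than for Dlat (−0.63 in KO, −0.58 in WT). Dld, the E3 dihydrolipoyl dehydrogenase, which is shared with the oxoglutarate and branched-chain keto acid complexes, stood at 9.07 in KO atria, 9.28 in WT atria, 10.32 in KO ventricles and 10.28 in WT ventricles. It was the member with the lowest ratio in KO, −1.25, or 2.38-fold lower in atria.

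The kinases of the complex did not share 1 direction. Pdk1 stood at 8.42 in KO atria, 8.29 in WT atria, 8.84 in KO ventricles and 8.82 in WT ventricles. Pdk2 stood at 10.34 in KO atria, 10.38 in WT atria, 10.63 in KO ventricles and 10.71 in WT ventricles. Both were lower in atria, Pdk1 by a log2 ratio of −0.42 in KO and −0.53 in WT, and Pdk2 by −0.28 and −0.33. Pdk3 stood at 7.66 in KO atria, 7.57 in WT atria, 5.50 in KO ventricles and 5.31 in WT ventricles. It was 4.47-fold higher in KO atria than in KO ventricles (log2 ratio 2.16) and 4.78-fold higher in WT atria than in WT ventricles (2.26). Both ventricular values of Pdk3 lay below the floor, where this kind of array value compresses differences. Pdk4, the kinase of this family known to be induced by fasting and fatty acids and not itself a member, stood at 10.85 in KO atria, 10.55 in WT atria, 10.86 in KO ventricles and 10.55 in WT ventricles, so that it differed by −0.01 between chambers in KO and −0.00 in WT.

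The phosphatase side and pyruvate carboxylase were lower in atria throughout. Pdp1, a catalytic phosphatase subunit, stood at 8.32 in KO atria, 8.84 in WT atria, 9.06 in KO ventricles and 9.27 in WT ventricles. Pdp2, the other catalytic subunit, stood at 5.40 in KO atria, 5.80 in WT atria, 6.44 in KO ventricles and 6.48 in WT ventricles, with KO atria alone below the floor. Pdpr, the regulatory subunit, stood at 8.07 in KO atria, 8.21 in WT atria, 8.91 in KO ventricles and 8.90 in WT ventricles. In all 3 the KO atria array held the lowest value. The chamber ratios were −0.73 in KO and −0.43 in WT for Pdp1, −1.04 and −0.68 for Pdp2, and −0.84 and −0.68 for Pdpr. Pcx, which carboxylates pyruvate to oxaloacetate and so refills the cycle, stood at 5.93 in KO atria, 5.98 in WT atria, 6.68 in KO ventricles and 6.58 in WT ventricles, or −0.75 in KO and −0.59 in WT.

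**Figure D3:**
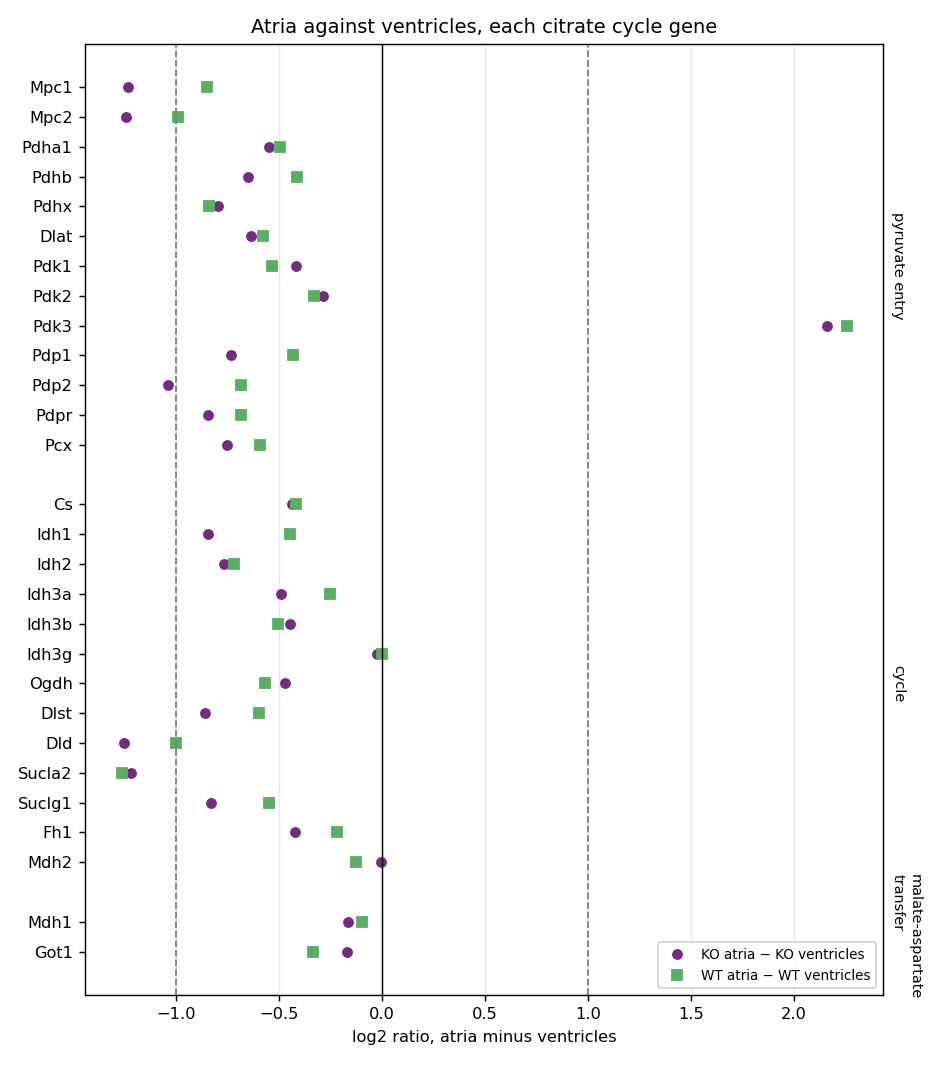
Log2 ratio of atria to ventricles (horizontal axis) for each member (rows, by step) in KO (circles) and WT (squares). Dashed lines mark 2-fold either way. Pdk3 is the row past the right line in both genotypes, Sucla2 the row past the left line in both, and Idh3g and Mdh2 lie near 0 in KO.

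Within the cycle, the members differed in how far the chambers were apart. Cs, citrate synthase, which condenses acetyl-CoA with oxaloacetate, stood at 10.92 in KO atria, 10.94 in WT atria, 11.35 in KO ventricles and 11.36 in WT ventricles, a chamber ratio of −0.44 in KO and −0.42 in WT.

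The NAD-linked isocitrate dehydrogenase, made of alpha, beta and gamma subunits, showed unequal ratios. Idh3a, the catalytic alpha subunit, stood at 10.37 in KO atria, 10.64 in WT atria, 10.86 in KO ventricles and 10.89 in WT ventricles. Idh3b, a beta subunit, stood at 11.10 in KO atria, 11.11 in WT atria, 11.54 in KO ventricles and 11.61 in WT ventricles. Idh3g, the gamma subunit, stood at 11.53 in KO atria, 11.54 in WT atria, 11.56 in KO ventricles and 11.54 in WT ventricles. The atrial values were lower for Idh3a (−0.49 in KO, −0.25 in WT) and Idh3b (−0.44 in KO, −0.50 in WT), while Idh3g was at −0.02 in KO and 0.00 in WT, with the sign of Idh3g depending on the scaling. Of the NADP-linked enzymes, the mitochondrial Idh2 stood at 11.01 in KO atria, 10.92 in WT atria, 11.77 in KO ventricles and 11.64 in WT ventricles. The cytosolic and peroxisomal Idh1 stood at 7.82 in KO atria, 8.05 in WT atria, 8.66 in KO ventricles and 8.50 in WT ventricles. In both genes KO ventricles held the highest value and the chambers did not overlap. Idh2 had ratios of −0.77 in KO and −0.72 in WT, and Idh1 of −0.84 in KO and −0.44 in WT.

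The oxoglutarate dehydrogenase complex and succinyl-CoA ligase followed. Ogdh, the E1 component, stood at 11.23 in KO atria, 11.10 in WT atria, 11.70 in KO ventricles and 11.67 in WT ventricles. Dlst, the E2 succinyltransferase, stood at 9.83 in KO atria, 10.02 in WT atria, 10.68 in KO ventricles and 10.62 in WT ventricles. Both were lower on both atrial arrays than on both ventricular arrays. With Dld, described above, the complex had chamber ratios of −0.47 (Ogdh), −0.86 (Dlst) and −1.25 (Dld) in KO, and −0.57, −0.59 and −0.998 in WT. Sucla2, the ADP-linked beta subunit of succinyl-CoA ligase, stood at 9.41 in KO atria, 9.47 in WT atria, 10.63 in KO ventricles and 10.74 in WT ventricles. Suclg1, the alpha subunit that pairs with either beta subunit, stood at 9.09 in KO atria, 9.34 in WT atria, 9.92 in KO ventricles and 9.89 in WT ventricles. The chambers did not overlap in either gene. Sucla2 was lower in atria by 2.33-fold in KO and 2.40-fold in WT, the lowest ratio of any member in WT, and Suclg1 by 1.78-fold in KO and 1.46-fold in WT.

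Fumarase and malate dehydrogenase close the cycle. Fh1, fumarase, stood at 10.01 in KO atria, 10.25 in WT atria, 10.43 in KO ventricles and 10.47 in WT ventricles, or −0.42 in KO and −0.22 in WT. Mdh2, the mitochondrial malate dehydrogenase, which also serves the malate-aspartate transfer, stood at 11.55 in KO atria, 11.42 in WT atria, 11.55 in KO ventricles and 11.54 in WT ventricles. The KO atria value lay between the ventricular values. Its ratio was −0.01 in KO and −0.13 in WT, and the sign in KO turned positive under quantile normalization and lowess centring. Just before fumarase in the cycle stands succinate dehydrogenase, whose 4 subunits are not members and were all lower in atria, from −0.67 (Sdhb) to −0.30 (Sdhc) in KO and from −0.75 (Sdhb) to −0.34 (Sdhc) in WT.

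The 2 measured enzymes of the cytosolic side of the malate-aspartate transfer had small chamber ratios. Mdh1, the cytosolic malate dehydrogenase, stood at 11.50 in KO atria, 11.61 in WT atria, 11.66 in KO ventricles and 11.70 in WT ventricles. Got1, the cytosolic aspartate aminotransferase, stood at 10.92 in KO atria, 10.90 in WT atria, 11.09 in KO ventricles and 11.24 in WT ventricles. Mdh1 was at −0.16 in KO and −0.10 in WT, and its sign turned under another scaling in both. Got1 was at −0.17 in KO and −0.34 in WT. By step, the median chamber ratio was −0.73 in KO and −0.58 in WT over 13 genes of pyruvate entry, −0.49 and −0.50 over 13 of the cycle, and −0.17 and −0.22 over these 2. Dld, which also belongs to the pyruvate dehydrogenase complex, and the cytosolic and peroxisomal Idh1 were counted with the cycle.

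The pattern over members was alike in both genotypes, whose chamber comparisons share no array. Across 28 members Pearson's correlation of the KO and WT chamber ratios was 0.97 and Spearman's 0.88. Without Pdk3 they were 0.89 and 0.87 over 27 members, and over 9663 genes above the floor on every array 0.87 and 0.79. These are descriptions across genes of the same arrays and tissue, and genes are not independent replicates.

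Other genes of the pathway were set beside the members. Of 41 further genes around the cycle, 40 were above the floor on at least 1 array. In KO, 35 of 40 were lower in atria with a median of −0.58, and 6 were at least 2-fold lower and 0 higher. In WT, 36 of 40 were lower with a median of −0.49, and 4 were at least 2-fold lower and 0 higher. Past 2-fold in both genotypes were Slc25a13, a mitochondrial aspartate-glutamate carrier of the malate-aspartate transfer (−1.35 in KO, −1.32 in WT), Oxct1, which passes coenzyme A from succinyl-CoA to ketone bodies (−1.32, −1.21), Bckdha, the E1 alpha subunit of the branched-chain complex that shares Dld (−1.13, −1.05), and Nnt, the transhydrogenase that makes mitochondrial NADPH (−1.09, −1.03). Past it in KO and short of it in WT were the malic enzyme gene Me1 (−1.20 in KO, −0.86 in WT) and Sdhaf4, an assembly factor of succinate dehydrogenase (−1.07, −0.75). The other aspartate-glutamate carrier, Slc25a12, was at −0.34 in KO and −0.26 in WT.

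Markers of mitochondrial content and of some cell types also differed between chambers. All 8 measured genes of the mitochondrial outer membrane, import and DNA maintenance were lower in KO atria than in KO ventricles, with a median of −0.63, and 7 of 8 were lower in WT atria with a median of −0.36. Cardiomyocyte markers had medians of −0.10 in KO and −0.07 in WT over 8 genes, and their summed intensity was 35270 in KO atria against 38340 in KO ventricles, and 36549 in WT atria against 38898 in WT ventricles. The cardiomyocyte markers lay near the top of the range of the arrays, with Actc1 the highest of all probe sets on 3 of the 4, and whether saturation narrowed their ratios was not tested. Fibroblast markers were higher in atria in 7 of 7 genes (summed intensity 6292 in KO atria against 4653 in KO ventricles, and 8422 in WT atria against 4986 in WT ventricles). Epicardial markers were higher in atria in 6 of 6 genes (1411 in KO atria against 359 in KO ventricles, and 1432 in WT atria against 321 in WT ventricles). Endothelial markers had no common direction, with 3 of 6 higher in atria in each genotype and medians of 0.005 in KO and −0.01 in WT. Smooth muscle markers were also split, with 2 of 4 higher in atria in KO and 1 of 4 in WT. Macrophage markers were higher in atria in 5 of 5 genes in KO (median 0.26) and 4 of 5 in WT (median 0.08). Of 5 adipose markers, 4 were below the floor on every array, Adipoq and Plin1 among them. The part of these other cells in the chamber ratios of the members was not tested.

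**Figure D4:**
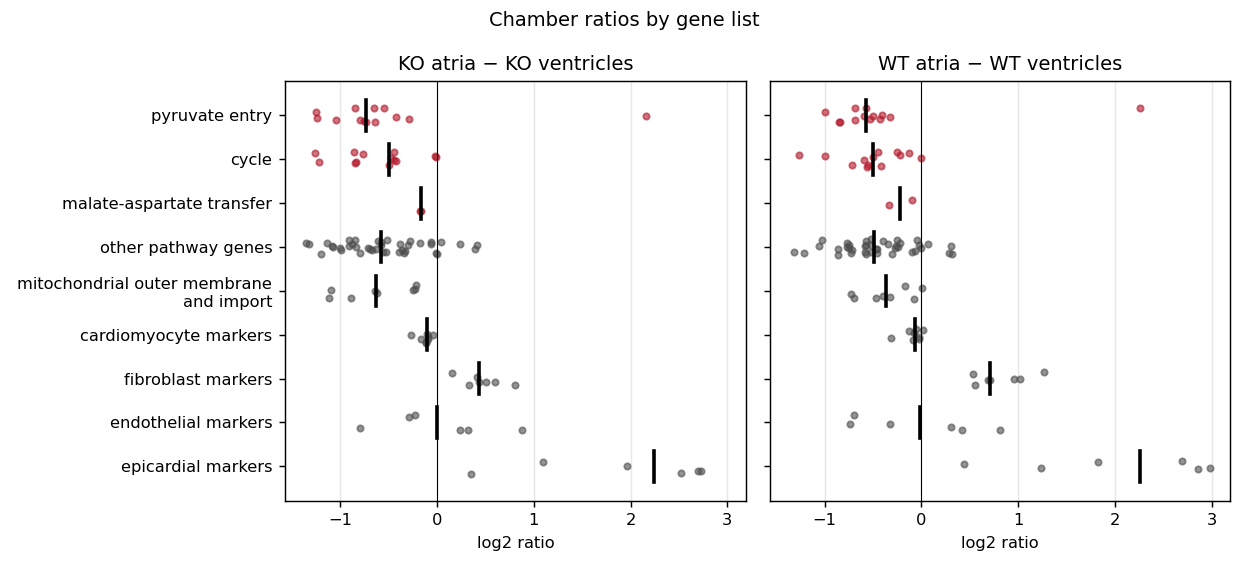
Log2 ratio of atria to ventricles (horizontal axis) of each gene above the floor, by gene list (rows), in KO (left) and WT (right). Red points are members and grey points other lists, vertical bars are list medians, and the vertical scatter within a row carries no value. Pyruvate entry, cycle and other pathway genes have medians between −0.73 and −0.49, cardiomyocyte markers, which sit near the top of the signal range, lie near 0, and fibroblast and epicardial markers are positive.

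The genotype comparison asked whether these transcripts differ in mice labelled as lacking MEF2A. In atria, 0 of 28 members reached 1.5-fold in either direction, where 1.07% of 10893 genes were higher and 2.40% lower in KO. In ventricles, 0 of 27 members above the floor did, where 0.531% of 10546 genes were higher and 0.711% lower in KO. With shares this small over all genes, a count of 0 lies near the background.

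In atria 21 of 28 members were lower in KO than in WT, with a median log2 ratio of −0.08, against 57.0% of genes and a median of −0.04. Under quantile normalization 16 of 28 were lower, and under lowess centring also 16. Pdp1 was the lowest at −0.52, or 1.43-fold, followed by Mpc1 at −0.44, Pdp2 at −0.40, Idh3a at −0.27, Suclg1 at −0.25 and Fh1 at −0.24. Pdhx was the highest at 0.16, followed by Ogdh, Mdh2 and Pdk1, each at 0.13. Within the pyruvate dehydrogenase complex, Pdhb (−0.22) and Dld (−0.21) were lower in KO atria, Pdha1 was at −0.09 and Dlat at −0.01, with the sign of Dlat depending on the scaling.

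In ventricles the members were closer to 0, with 15 of 27 higher and 12 lower in KO and a median of 0.01, against 0.00 over all genes. Pdp1 was again the lowest, at −0.22, followed by Got1 at −0.15 and Sucla2 at −0.11. Idh1 was the highest of those above the floor at 0.17, followed by Idh2 at 0.13, Pdhx at 0.11 and Pcx at 0.11. Pdk3, below the floor on both ventricular arrays, was at 0.19. Cs, the member often used as a measure of mitochondrial content, was at −0.02 in atria and −0.00 in ventricles, with a sign that depended on the scaling in both.

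Of the other 41 pathway genes, 0 reached 1.5-fold between KO and WT in either chamber. Pdk4 had the highest ratio among them in both, 0.30 in atria and 0.31 in ventricles, while the member kinases were between −0.04 (Pdk2) and 0.13 (Pdk1) in atria and between −0.08 (Pdk2) and 0.19 (Pdk3) in ventricles. Of 8 genes of the mitochondrial outer membrane, import and DNA maintenance, 7 were lower and 1 higher in KO atria, with a median of −0.16. The import gene Tomm22 (−0.89) and the mitochondrial DNA packaging gene Tfam (−0.60) were past 1.5-fold lower there, where 2.40% of all genes were. In ventricles they were at −0.11 and 0.02. In the same atrial comparison 7 of 7 fibroblast markers were lower in KO, with a median of −0.37. Smooth muscle markers were split there, 2 higher and 2 lower, from −1.29 (Cnn1) to 0.61 (Acta2). In ventricles 5 of 5 atrial markers above the floor were lower in KO, with a median of −0.32. Of 6 ventricular markers there, 4 were higher, with Myh7 at 0.99, and 2 lower. The part of these marker differences in the ratios of the members was not tested.

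**Figure D5:**
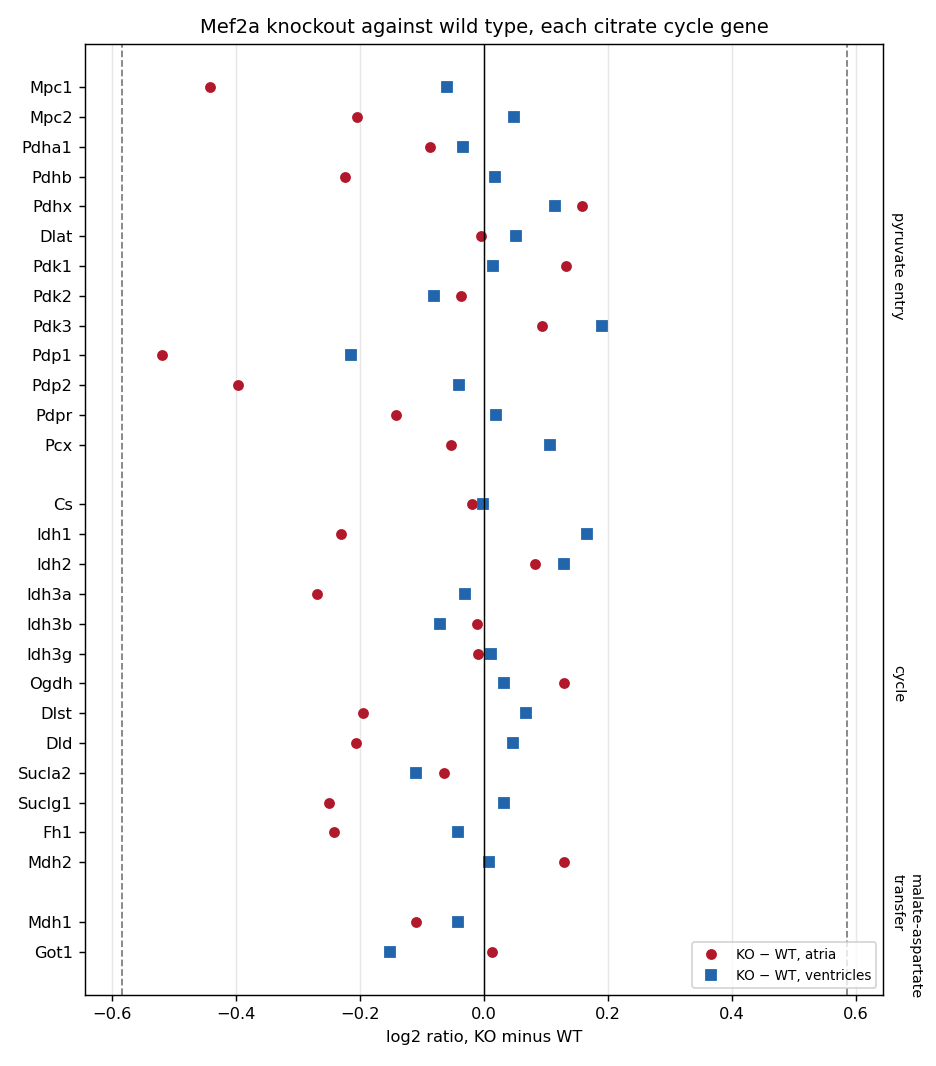
Log2 ratio of KO to WT (horizontal axis) for each member (rows, by step) in atria (circles) and ventricles (squares). Dashed lines mark 1.5-fold either way, and every point lies between them. Atrial values run from −0.52 (Pdp1) to 0.16 (Pdhx), and ventricular values from −0.22 (Pdp1) to 0.19 (Pdk3).

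The KO ratios of the chambers were set side by side, and their difference, which had no test, is the ratio in atria minus that in ventricles. It was negative in 20 of 28 members with a median of −0.08, against 57.6% of genes and a median of −0.04, and 63.2% of genes and −0.06 among those at or above the 75th percentile of level. The most negative were Idh1 (−0.40), Mpc1 (−0.38), Pdp2 (−0.36) and Pdp1 (−0.30), and the most positive Got1 (0.17), Mdh2 (0.12) and Pdk1 (0.12). Across the 28 members the KO ratios in atria and ventricles had a Pearson's correlation of 0.39 and a Spearman's correlation of 0.28, against 0.30 and 0.25 over 9663 genes, as a description across genes. Of the comparisons of KO with WT, the KO atria array, on which values were more compressed, enters that in atria alone. It also enters the comparison of chambers in KO.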

How the data were processed

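The 4 groups were measured on 1 array each, with RNA pooled from 7 mice per array. Each probe set has 1 log2 intensity per array in the deposited table, made by the authors with RMA and the affy package per the submitters' processing notes; versions, array build and scanner files were not given in or not used from the sources used here. Probe set IDs are gene numbers, which equalled the annotated gene number for 18743 of 18792 annotated probe sets of 21212. Symbols came from the platform annotation, updated through RefSeq (GRCm38.p6), and 1917 unlisted probe sets, Mpc2 among them, were named by number. Of repeated symbols the probe set with the highest mean was kept, leaving 20700 genes.

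Ratios are differences between 2 arrays on the log2 scale. Genes were counted at 1.5-fold (KO against WT) or 2-fold (atria against ventricles) where the brighter array reached the floor, 5.71. No p-value was computed. The precision of every value is limited by having 4 arrays. Counting was run on simulated shifts set larger than the cut, in genes well above the floor and with little noise. That checks the counting step and not the error of counts on these arrays. Alternatives were median centring, quantile normalization, lowess centring (fraction 0.3), other floors and other folds, and names from the annotation alone, which was chosen after seeing the data. The members and lists were chosen with earlier results of these data known. All members are named; other genes come from fixed lists, where past the fold or, except for genes not reported here, completing the cycle or kinase family, and others are given as values. Tools were Python 3.11.15, pandas 2.3.3, numpy 2.4.6, statsmodels 0.14.6 and matplotlib 3.10.9.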

Additional observations from a re-analysis of the deposited data

Results flagged for a closer look

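Idh1, the cytosolic and peroxisomal NADP-linked isocitrate dehydrogenase, went opposite ways in the chambers, with a log2 ratio of KO to WT of −0.23 in atria and 0.17 in ventricles. It was singled out because it was the member whose ratios had opposite signs and were at least 0.1 in size in both chambers. The difference between chambers was not tested, since each group has 1 array, and neither ratio reached 1.5-fold.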

How the results depend on the processing

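The labels give no replicate numbers that pair arrays, and the fit of chamber and genotype together, with 1 residual degree of freedom, was not run. Counts of 0 members past the fold between KO and WT held in both chambers under every scaling, floor and fold tried. A higher floor or a fold above 1.5 cannot raise a count of 0, so such settings do not check it. In WT atria against ventricles, the 1 member at least 2-fold lower became 3 when each array was centred on its median, with Mpc2 at −1.02 and Dld at −1.03 joining Sucla2, and 10 at 1.5-fold. In KO, the 5 lower members became 15 at 1.5-fold. The KO chamber median of −0.64 moved to −0.50 under lowess centring, and the other alternatives moved the 4 medians by at most 0.1. Pdp2 in KO dropped out with a floor at the 75th percentile. No called member changed sign under any alternative. The difference between chambers in the KO ratio became 0.14 for Pdhx and 0.16 for Pdk2 under quantile normalization, against 0.04 for each as reported, and moved by no more than 0.1 for the other members under the 3 scalings. Leaving out replicates was not possible with 1 array per group. Names from the platform annotation alone removed Mpc2. Values near the floor, as for Pdk3 in ventricles and Pdp2 and Pcx in all groups, are the least certain.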
